A study of Homo sapiens with 3 samples.

Results

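The expression difference described here is the one that appeared when Geminin was depleted on top of FoxO3 in MDA-MB-231, a triple-negative breast carcinoma line of human origin. The library of cells depleted of both proteins was compared with that of cells depleted of FoxO3 alone. The genes were those with a GENCODE name and a mean of at least 5 FPKM over the 2 libraries, where FPKM counts fragments per kilobase of transcript, scaled to the fragments of the whole library. They numbered 9638 of the 48162 gene identifiers in the files, 9351 of them protein-coding. The genes nearest to that minimum were ZNF529-AS1, RPL36A and ACVR2A just inside it, with means of 5.001, 5.002 and 5.002 FPKM, and ZCCHC4, MAFG-DT and MANEAL just outside it, with means of 4.995, 4.995 and 4.998 FPKM.

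RNA-seq libraries came from 3 cultures of the line in total, the third being a control. Cells of every group were exposed to lentivirus for 24 h, received fresh medium and were collected 72 h after that, so the control differed from the depleted groups in what the virus carried and not in being infected. The sources used here name neither the sequences used for depletion nor the insert of the control virus, and they do not explain the number that ends the titles of both depleted libraries. Cells depleted of Geminin alone were not analysed here, so all values below describe what Geminin depletion added in cells that also lacked most of their FoxO3 mRNA. With 1 library per group no difference could be tested, and the values are sizes. Each ratio of FPKM (co-depletion over FoxO3 depletion) is given where possible with a 95% exact interval from the reads behind it, which covers counting error only and compares the libraries, not the conditions. In bulk RNA, fewer cells of a kind and less RNA per cell cannot be told apart.

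Geminin is the inhibitor of CDT1, the protein that loads the MCM helicase onto replication origins. Origins are licensed in G1, when Geminin is destroyed by the anaphase-promoting complex, and Geminin accumulates from S phase to mitosis to keep CDT1 from licensing them again. Without it some cancer cells replicate parts of their genome more than once, and CDT1 is then still removed in S phase through the ubiquitin ligases that contain SKP2 or CDT2 (DTL). FoxO3 is a transcription factor of the forkhead family that activates genes of cell cycle arrest, cell death and stress defence.

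The targeted mRNAs followed the labels. GMNN, which encodes Geminin (ENSG00000112312, chromosome 6), was at 112 FPKM in the control, 112 FPKM in the FoxO3 depletion and 37.0 FPKM in the co-depletion. Its ratio was 0.330 (interval 0.292 to 0.371, from 1006 and 378 reads). FOXO3 was at 12.2 FPKM in the control, 2.79 FPKM in the FoxO3 depletion and 2.94 FPKM in the co-depletion, below the minimum of the comparison. The ratio of FOXO3 between the depleted libraries was 1.06 (interval 0.858 to 1.30), so its level was near equal in both. The other members of the family were also under the minimum: FOXO1 had 2.86 and 3.25 FPKM and FOXO4 2.52 and 3.62 FPKM in the FoxO3 depletion and the co-depletion.

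The totals behind the FPKM values came to 14507410 reads (control), 10760613 reads (FoxO3 depletion) and 12267332 reads (co-depletion). VIM, CD44, EGFR, CAV1, AXL and MSN, which mark this line, had between 128 and 935 FPKM in the depleted libraries, and their log2 ratios lay from -0.10 to 0.04. CDH1, ESR1 and PGR, which the line lacks, were at 1.02 FPKM or less in all 3 libraries, while EPCAM, also on the list as near 0, was at 13.7 FPKM in the control and at 9.80 and 8.95 FPKM with FoxO3 depleted alone or together with Geminin. Of 12 leukocyte markers 2 passed the minimum, LAPTM5 and CD14, and PTPRC was at 0.191 FPKM or less in each library. Of 9 markers of the HEK293 line, often used to make lentivirus, ZIC2 alone passed it, at 13.1 and 11.6 FPKM in the FoxO3 depletion and the co-depletion. Of 11 fibroblast and endothelial markers 4 passed it, KDR, PDGFRB, COL1A1 and COL1A2, while DCN, LUM and CDH5 were at 0.357 FPKM or less. Of the members of these 3 lists that passed the minimum, none was past 1.2-fold between the depleted libraries in FPKM + 1, and KDR came nearest, at 6.97 and 5.75 FPKM. Of 12 luminal breast markers 8 passed the minimum, and MUC1 and TFF1 were 1.2-fold higher in the co-depletion (25%, beside 8.48% of all genes).

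Over all 9638 genes the libraries were close. On the scale of log2 ratios of (FPKM + 1), which is used for all sizes below and understates the change of low genes, the median was 0.02, the middle 50% of genes lay from -0.08 to 0.12 and the middle 90% from -0.22 to 0.32. At a size of 1.2-fold, 817 genes (8.48%) were higher in the co-depletion and 288 genes (2.99%) were lower. At 1.5-fold, 37 genes (0.384%) were higher and 13 genes (0.135%) lower. Past 2-fold there was 1 gene in each direction, AC245595.1 above and GMNN below. The counting interval lay above 1 for 14.2% of the genes and below 1 for 10.3%. Of the 817 genes past 1.2-fold upward, 645 had an interval that left out 1, as had 213 of the 288 downward.

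The base composition of the transcripts moved with the ratio. When genes were put in order of the GC content of their transcripts and divided into 10 equal groups, the group with the lowest GC content, 27.8% to 40.0%, had a median log2 ratio of 0.16. It held 311 of the 817 genes that were 1.2-fold higher, 32.3% of its members, against 11 members that were 1.2-fold lower. The groups from 44.1% to 52.0% GC had medians of -0.04, and the richest group, from 61.5% to 74.2%, had 0.05. Relative to the control, the lowest group had medians of -0.68 (FoxO3 depletion) and -0.51 (co-depletion), in comparisons that share these libraries. The part of GC content in the sizes of single genes was not tested, and therefore each family is given with its median before and after subtraction of a running median over GC content. That adjustment changed the counts at 1.2-fold to 528 higher and 376 lower, so that the higher genes made up 58.4% of those past 1.2-fold and not 73.9%. After it, 477 of the 817 and 250 of the 288 genes were still past 1.2-fold in their direction.

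**Figure D1:**
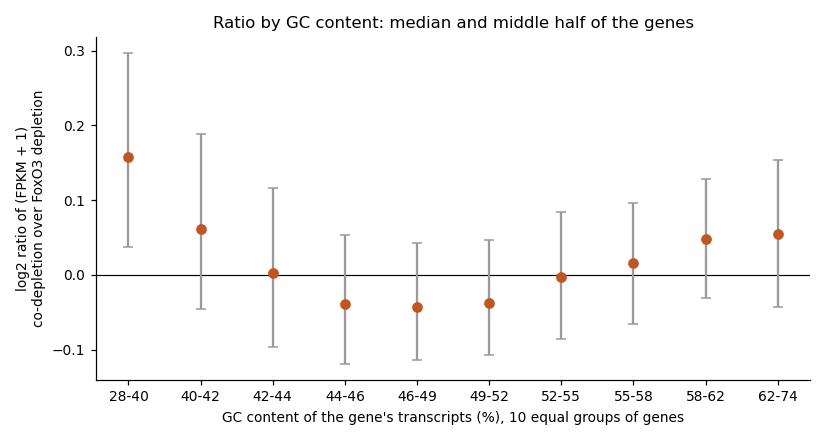
Median log2 ratio of (FPKM + 1), co-depletion over FoxO3 depletion (y axis), for 10 equal groups of genes ordered by the GC content of their transcripts in percent (x axis). Points are medians and bars span the middle 50% of the genes. The group lowest in GC content stands at 0.16 and the groups from 44.1% to 52.0% lie just below 0.

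Of the 15 lowest ratios 4 belonged to genes of origin licensing, its control or origin firing: GMNN, SKP2, CDT1 and GINS3. GMNN was the depleted gene itself, so its place there was set by the experiment. The lists of licensing, its control and firing held 17, 17 and 18 of the 9638 genes compared. CDT1 was on both the licensing and the control list. After GMNN, the protein-coding genes among the 15 lowest ratios included APAF1, SMDT1, SKP2, MED30, CDT1, GINS3, TMEM186 and SMCO4. CDT1, the loader of the MCM helicase that Geminin binds, was at 31.0 FPKM in the control, 34.7 FPKM in the FoxO3 depletion and 22.5 FPKM in the co-depletion. Its ratio was 0.649 (interval 0.571 to 0.738). SKP2, the substrate receptor of a ligase that marks CDT1 for destruction, was at 34.3 FPKM in the control, 30.6 FPKM in the FoxO3 depletion and 19.4 FPKM in the co-depletion, a ratio of 0.633 (interval 0.549 to 0.728). GINS3, a subunit of the GINS complex of the active replicative helicase, was at 13.2, 9.66 and 6.08 FPKM in the same order, a ratio of 0.630 (interval 0.474 to 0.833). In all of CDT1, SKP2 and GINS3 the co-depletion was the lowest of the 3 libraries.

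Outside replication, APAF1, the scaffold of the apoptosome that activates caspase-9, was at 16.7 FPKM in the control, 17.6 FPKM in the FoxO3 depletion and 9.59 FPKM in the co-depletion, a ratio of 0.546 (interval 0.483 to 0.617). SMDT1, a regulatory subunit of the mitochondrial calcium uniporter, was at 27.3, 24.0 and 14.3 FPKM, a ratio of 0.598 (interval 0.426 to 0.834). For APAF1 and SMDT1 the co-depletion lay below both other libraries by a wide margin. MED30, a subunit of the Mediator complex, had a ratio of 0.646 (interval 0.531 to 0.786). TMEM186 shares 22.9% of its exonic bases with PMM2, so reads of the pair may have been split. Of the 15 lowest, 5 were antisense RNAs (3) or pseudogenes (2) with few reads: AC023232.1 rested on 23 and 12 reads, and the interval of AC103810.3, from 0.335 to 1.15, took in 1.

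Of the 15 highest ratios 8 belonged to genes in the group lowest in GC content. AC245595.1, a long noncoding RNA, had 4.54 FPKM in the FoxO3 depletion and 10.2 FPKM in the co-depletion, from 20 and 51 reads. POLK, a translesion DNA polymerase that copies past bulky lesions, was at 13.0 FPKM in the control, 4.66 FPKM in the FoxO3 depletion and 8.85 FPKM in the co-depletion, a ratio of 1.90 (interval 1.52 to 2.39). TIA1, an RNA-binding protein of stress granules, was at 40.0, 12.3 and 21.8 FPKM, a ratio of 1.77 (interval 1.46 to 2.14). POLK and TIA1 thus lay between the FoxO3 depletion and the control in the co-depletion. The transcripts of POLK and TIA1 had GC contents of 36.7% and 39.0%, and after GC adjustment their log2 ratios went from 0.80 and 0.77 to 0.58 and 0.62. CEBPZ, KRR1, NSRP1, PROS1, KIAA1551 and TM2D3 had ratios from 1.66 to 1.76, with CEBPZ and KRR1 sharing exonic bases with a neighbour. The secreted peptides TFF1 and SPINK4 had ratios of 1.82 and 1.83, from 26 and 54 reads and from 37 and 77 reads. Also among the 15 were RMRP, the RNA of a mitochondrial RNA-processing ribonuclease, and the interferon-stimulated genes OAS1 and SAMD9.

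**Figure D2:**
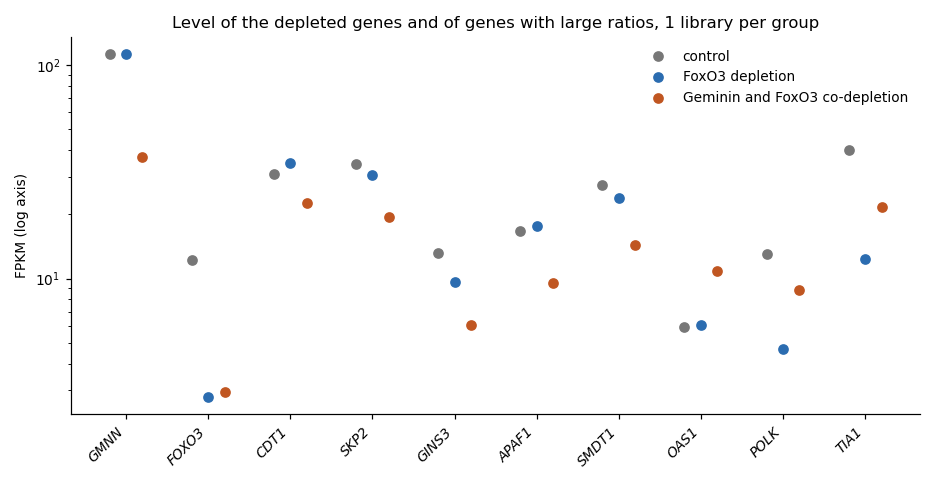
FPKM on a log axis (y axis) of the depleted genes and of genes with large ratios (x axis), with 1 point for each library: control, FoxO3 depletion and co-depletion. GMNN stood at 37.0 FPKM in the co-depletion against 112 FPKM in both other libraries, and CDT1, SKP2, GINS3, APAF1 and SMDT1 were lowest in the co-depletion, while OAS1 was highest there.

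Genes of origin licensing and of DNA synthesis were lower as families, by small amounts. Licensing begins with the origin recognition complex (ORC) and CDC6, on which CDT1 loads the MCM ring. Of 18 genes on the licensing list 17 passed the minimum, with a median log2 ratio of -0.10 (-0.11 after GC adjustment) beside 0.02 for all genes, and 13 of the 17 lay below the median of all genes. At 1.2-fold, CDT1 was lower and ORC3 higher, each 5.88% of the list, beside 2.99% and 8.48% of all genes. The counting interval lay below 1 for 7 members and above 1 for 1, beside 10.3% and 14.2% of all genes. MCM6, a subunit of the helicase ring, was at 59.3 FPKM in the control, 49.4 FPKM in the FoxO3 depletion and 41.9 FPKM in the co-depletion. ORC6 was at 31.4, 36.7 and 31.3 FPKM and CDC6 at 119, 137 and 124 FPKM in the same order. Among the most abundant members, MCM3 and MCM7 had ratios of 0.915 and 0.929, and MCM4 0.945. ORC3, with a GC content of 39.4%, went the other way, at 16.1, 7.62 and 10.9 FPKM. MCM2 and MCM5 had intervals that took in 1 (0.905 to 1.05 and 0.892 to 1.06).

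Promoters were searched for the core of the E2F site, E2F being the family of factors that turns on replication genes at the end of G1. In RefSeq promoters (GRCh38.p14, 250 bases before to 50 after the start, matched for 7872 of the 9638 genes), the 7 bases TTCGCGC on either strand occurred in 5 of 15 licensing promoters (33.3%) beside 4.22% of all. The promoters of the 2 members with a match and the lowest ratios are shown to display these sites, on the gene's strand, up to the base before the start and with each match in capitals. In MCM6 the matches begin 148 and 86 bases before the start, and in ORC1 the match begins 19 bases before it.
MCM6 promoter, chr2:135876444-135876693, minus strand: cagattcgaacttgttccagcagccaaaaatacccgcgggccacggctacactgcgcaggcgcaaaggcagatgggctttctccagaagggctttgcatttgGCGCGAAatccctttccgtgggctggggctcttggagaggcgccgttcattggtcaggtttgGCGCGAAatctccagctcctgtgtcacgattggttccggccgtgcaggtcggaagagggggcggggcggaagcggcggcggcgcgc
ORC1 promoter, chr1:52404424-52404673, minus strand: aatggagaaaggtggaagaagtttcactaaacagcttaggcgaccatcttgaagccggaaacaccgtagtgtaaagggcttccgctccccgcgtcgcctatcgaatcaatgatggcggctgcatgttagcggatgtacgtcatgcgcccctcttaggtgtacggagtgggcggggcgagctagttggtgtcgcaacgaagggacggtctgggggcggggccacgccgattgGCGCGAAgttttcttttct
ORC1, whose promoter is the second shown, was at 12.8, 13.8 and 12.4 FPKM, a ratio of 0.896 with an interval of 0.774 to 1.04. Over the replication, G1/S and histone lists, the 16 genes with a match had a median log2 ratio of -0.12 and the 91 without one -0.08. Outside those lists, the 316 genes with a match and the 7449 without one both had a median of 0.02. A match of letters is a description and does not show that a factor binds there.

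The list of DNA synthesis genes (polymerases, primase, clamp and its loader, and enzymes of nucleotide supply) had 35 of 36 members above the minimum and a median of -0.10 before and after adjustment, with 28 of 35 below the median of all genes. None was 1.2-fold higher (8.48% of all genes) and 3 were 1.2-fold lower (2.99% of all). The interval lay below 1 for 13 members and above 1 for 0, beside 10.3% and 14.2% of all genes. Both primase subunits, which make the RNA primers, were among the 3. PRIM2 was at 37.0 FPKM in the control, 34.0 FPKM in the FoxO3 depletion and 24.6 FPKM in the co-depletion, a ratio of 0.724 (interval 0.623 to 0.840). PRIM1 was at 23.4, 20.5 and 16.5 FPKM, a ratio of 0.804 (interval 0.651 to 0.992). RRM1, the large subunit of ribonucleotide reductase, was at 136, 136 and 106 FPKM, a ratio of 0.779 (interval 0.700 to 0.868). PRIM2, PRIM1 and RRM1 were each lowest in the co-depletion. RPA1, the large subunit of the factor that coats single-stranded DNA, and RFC2, a subunit of the clamp loader, had ratios of 0.851 (interval 0.804 to 0.901) and 0.854 (interval 0.742 to 0.982). PCNA, the sliding clamp, did not differ beyond its interval, at 106 and 104 FPKM in the FoxO3 depletion and the co-depletion, and neither did TK1, at 180 and 172 FPKM. PRIM2 had a GC content of 38.8%, so its adjusted log2 ratio, -0.60, was further from 0 than its unadjusted one, -0.45.

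Origin firing genes, which act after licensing, had a median near that of all genes. All 18 were above the minimum, and the median was 0.00 (-0.03 after adjustment). GINS3 was past 1.5-fold downward, and WDHD1 and DONSON were past 1.2-fold upward. At 1.2-fold 11.1% of the list were thus higher and 5.56% lower, beside 8.48% and 2.99% of all genes. After GC adjustment the log2 ratio of GINS3 was -0.55, short of 1.5-fold, and 1 member of the list was 1.2-fold higher. GINS1, a partner of GINS3 in the same complex, had a ratio of 0.853 (interval 0.736 to 0.99), while GINS2 and GINS4 had intervals that took in 1. CDC45, the other helicase partner, was at 38.6 and 41.3 FPKM, a ratio of 1.07 (interval 0.893 to 1.28). The list of proteins that control or destroy CDT1 had 17 of 20 members above the minimum and a median of -0.06. Past 1.2-fold were GMNN, the depleted gene itself, SKP2, CDT1 and CDC20 downward, and FBXO5 upward. These were 23.5% and 5.88% of the list, beside 2.99% and 8.48% of all genes, and CDT1 was counted on the licensing list too. CDC20 and FBXO5 are an activator and an inhibitor of the anaphase-promoting complex. After GC adjustment 4 members of this list were 1.2-fold lower and 0 higher. DTL, the receptor that hands CDT1 to the ligase at the replication fork, had a ratio of 0.961 (interval 0.882 to 1.05), and its partner DDB1 a ratio of 0.965 (interval 0.929 to 1.0). CKS1B, the cofactor of SKP2, was at 231, 305 and 276 FPKM. Cyclins and E2F factors of the G1/S step had a median of -0.02 over 25 genes. CDK6 and RB1 were past 1.2-fold upward (8% of the list, beside 8.48% of all genes) and none downward (beside 2.99%). After GC adjustment 1 of the 25 was 1.2-fold higher.

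Histone genes had the lowest median of the 62 lists with at least 4 members above the minimum. With a minimum of 20 FPKM, which 12 of them passed, their median was -0.09 and the sixth from the lowest, with origin licensing lowest at -0.13. Of 47 genes on the list 15 passed it, 20 were below it and 12 were listed at 0 in all 3 libraries, so the median of -0.18 (-0.14 after adjustment) describes the measured 15. Of these 14 lay below the median of all genes, 5 were 1.2-fold lower (33.3%, beside 2.99% of all genes) and none was 1.2-fold higher. HIST1H2BK, a core H2B histone, was at 152 FPKM in the control, 218 FPKM in the FoxO3 depletion and 178 FPKM in the co-depletion, a ratio of 0.815 (interval 0.732 to 0.908). HIST1H1C, a linker histone, was at 54.0, 78.6 and 65.0 FPKM, a ratio of 0.828 (interval 0.738 to 0.928). H2AFX, the H2A variant phosphorylated at DNA breaks, was at 155, 192 and 161 FPKM, a ratio of 0.839 (interval 0.797 to 0.883). In these 3 genes the co-depletion lay between the control and the FoxO3 depletion. HIST1H4H, HIST1H2AC and HIST1H2BJ had log2 ratios of -0.38, -0.32 and -0.30, but their intervals took in 1. For HIST1H2AC the recovered reads, 31 and 28, were few for its FPKM and transcript length. They may be divided by a common factor, which would make its interval too wide. Of the replacement histones, made outside S phase too, H3F3A, H3F3B and H2AFV had ratios of 0.98, 0.986 and 1.01, and H2AFZ and H2AFY 0.953 and 0.949, H2AFY with an interval below 1 (0.906 to 0.995). Histone genes have near-identical copies, among which reads may have been split.

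**Figure D3:**
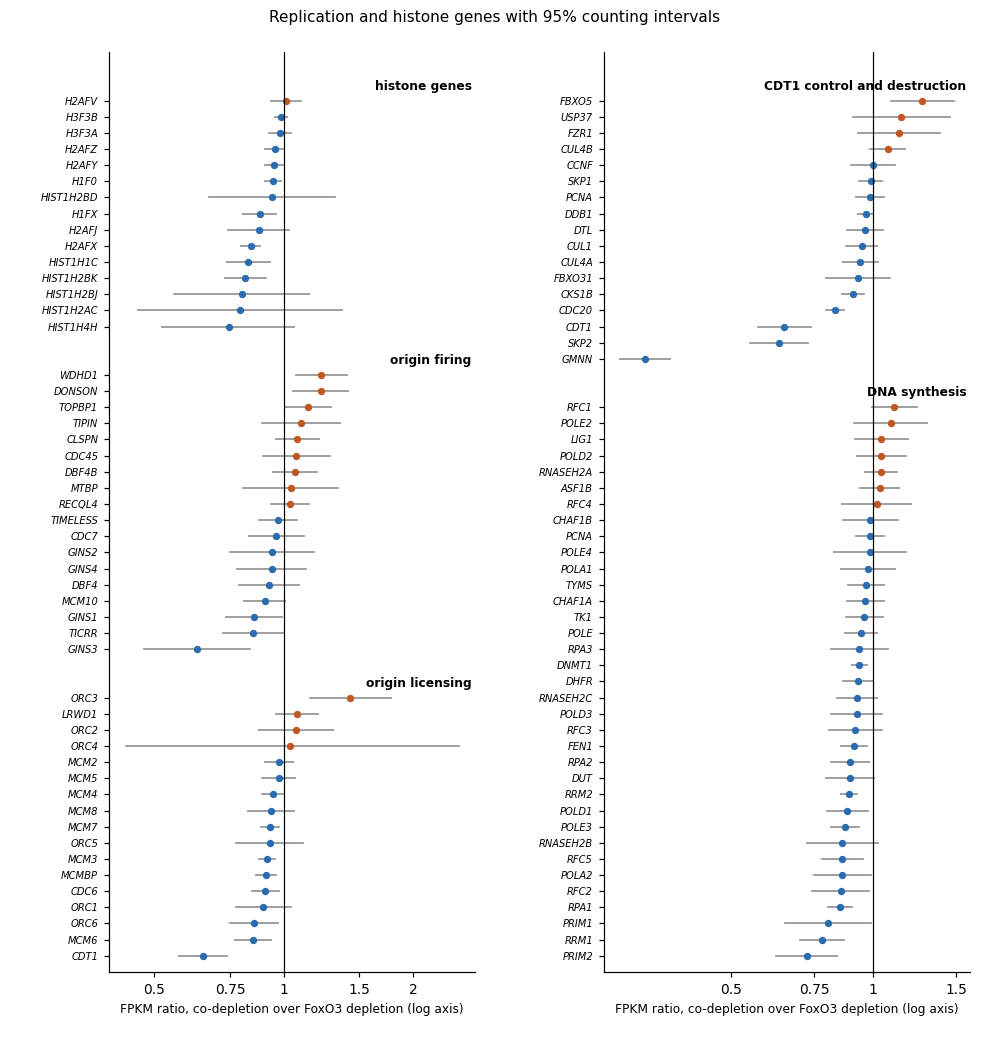
FPKM ratio, co-depletion over FoxO3 depletion, on a log axis (x axis) for each member above the minimum (y axis) of the histone, origin firing, origin licensing, CDT1 control and DNA synthesis lists. Points are ratios, orange above 1 and blue below, and bars are 95% counting intervals. GMNN stands at 0.330, CDT1 at 0.649 and SKP2 at 0.633, and 28 of the 35 DNA synthesis genes lie below the median of all genes.

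The highest median of all 62 lists belonged to the interferon-stimulated genes, the antiviral set that interferon turns on through STAT2 and IRF9. These factors bind the interferon-stimulated response element, whose core was searched as the 9 bases GAAANNGAA on either strand. It occurred in 27 of the 41 promoters matched for the list (65.9%) and in 6.43% of all promoters. The 4 members with a match and the highest ratios are shown to place these elements, on the gene's strand, up to the base before the start and with each match in capitals.
SAMD9 promoter, chr7:93117980-93118229, minus strand: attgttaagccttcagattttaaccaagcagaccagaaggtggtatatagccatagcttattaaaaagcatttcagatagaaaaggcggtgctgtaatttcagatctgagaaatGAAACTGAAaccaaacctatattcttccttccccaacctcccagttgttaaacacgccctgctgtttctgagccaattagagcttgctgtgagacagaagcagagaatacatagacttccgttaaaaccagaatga
CXCL10 promoter, chr4:76023498-76023747, minus strand: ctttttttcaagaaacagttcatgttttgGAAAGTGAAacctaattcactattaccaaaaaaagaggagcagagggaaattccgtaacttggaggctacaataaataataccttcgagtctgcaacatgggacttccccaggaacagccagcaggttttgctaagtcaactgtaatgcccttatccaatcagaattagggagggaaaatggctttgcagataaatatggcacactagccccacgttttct
IFI27 promoter, chr14:94110486-94110735, plus strand: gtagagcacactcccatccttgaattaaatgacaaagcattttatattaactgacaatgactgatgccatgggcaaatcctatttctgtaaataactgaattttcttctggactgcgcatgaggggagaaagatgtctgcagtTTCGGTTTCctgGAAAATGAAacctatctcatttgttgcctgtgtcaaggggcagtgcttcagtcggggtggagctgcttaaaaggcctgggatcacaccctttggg
DDX60 promoter, chr4:168318753-168319002, minus strand: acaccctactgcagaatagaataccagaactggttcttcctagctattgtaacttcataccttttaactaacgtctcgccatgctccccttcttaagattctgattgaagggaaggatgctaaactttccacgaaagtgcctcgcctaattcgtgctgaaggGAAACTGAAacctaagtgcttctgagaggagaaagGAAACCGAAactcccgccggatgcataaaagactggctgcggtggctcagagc
The match begins 136 bases before the start in SAMD9 and 221 bases before it in CXCL10. IFI27 has matches at 107 and 95 bases and DDX60 at 88 and 53 bases before the start.

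Of 56 interferon-stimulated genes 49 passed the minimum, with a median log2 ratio of 0.18 before and after GC adjustment, and 42 of the 49 lay above the median of all genes. At 1.2-fold 16 were higher (32.7%, beside 8.48% of all genes) and 1 was lower, EPSTI1, and at 1.5-fold OAS1, SAMD9 and CXCL10 were higher. The interval lay above 1 for 27 members and below 1 for 1, beside 14.2% and 10.3% of all genes. OAS1, the sensor of double-stranded RNA that makes the activator of RNase L, was at 5.93 FPKM in the control, 6.04 FPKM in the FoxO3 depletion and 10.8 FPKM in the co-depletion. Its ratio was 1.79 (interval 1.33 to 2.43, from 68 and 139 reads), and it was higher in the co-depletion alone. IFI27, a mitochondrial protein whose mRNA is a common marker of interferon exposure and whose promoter is shown above, was at 47.9, 46.3 and 69.1 FPKM, a ratio of 1.49 (interval 1.30 to 1.71). ISG20, an exonuclease of viral RNA, was at 10.1, 12.9 and 18.6 FPKM, a ratio of 1.45 (interval 1.21 to 1.73). For OAS1 and IFI27 the control and the FoxO3 depletion were near each other and the co-depletion stood above both. ISG20 was also highest in the co-depletion, but its FoxO3 depletion already lay above the control.

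Further members did not follow the pattern of OAS1 and IFI27. CXCL10, a chemokine for T cells whose promoter holds the element 221 bases before the start, was at 0.411 FPKM in the control, 4.91 FPKM in the FoxO3 depletion and 8.27 FPKM in the co-depletion. It was thus lowest in the control and highest in the co-depletion, with a ratio of 1.68 between the depleted libraries (interval 1.23 to 2.33, from 62 and 119 reads). SAMD9, a restriction factor of poxviruses, was at 14.4, 5.52 and 9.44 FPKM, a ratio of 1.71 (interval 1.49 to 1.96). DDX60, a helicase that aids RIG-I, was at 37.7, 14.8 and 22.0 FPKM, a ratio of 1.48 (interval 1.26 to 1.74). SAMD9L, a neighbour and relative of SAMD9, was at 23.0, 14.2 and 20.8 FPKM, a ratio of 1.47 (interval 1.30 to 1.66). SAMD9, DDX60 and SAMD9L were lowest in the FoxO3 depletion and below the control in the co-depletion. Their transcripts have GC contents of 36.1%, 38.6% and 38.7%, and their log2 ratios of 0.68, 0.54 and 0.52 became 0.45, 0.37 and 0.37 after adjustment. OAS1 and IFI27, with GC contents of 49.8% and 55.8%, went from 0.75 to 0.80 and from 0.57 to 0.56.

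The most abundant interferon-stimulated genes had ratios nearer to 1. ISG15, a ubiquitin-like protein, was at 275 FPKM in the control, 379 FPKM in the FoxO3 depletion and 370 FPKM in the co-depletion, a ratio of 0.978 (interval 0.930 to 1.03). IFITM3, which blocks viral entry, had a ratio of 1.06 (interval 1.01 to 1.12), and BST2, which tethers budding virus, 1.12 (interval 1.05 to 1.19). The IFIT proteins bind foreign RNA, and IFIT2 had the highest ratio of that family, 1.27 (interval 1.19 to 1.36), with IFIT1, IFIT3 and IFIT5 at 1.15, 1.11 and 1.23. MX1, a dynamin-like antiviral GTPase, was on the other side, at 15.6, 22.1 and 19.9 FPKM, a ratio of 0.899 with an interval of 0.768 to 1.05. EPSTI1 was at 2.90, 7.57 and 5.43 FPKM, a ratio of 0.717 (interval 0.547 to 0.938), the only member with an interval below 1. Among the 7 members below the minimum, CXCL11, a relative of CXCL10, was at 2.32, 2.98 and 4.81 FPKM, and IFI44L at 1.97, 1.26 and 1.86 FPKM.

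The list of genes that carry the interferon signal and present antigen had a smaller median than the list of interferon-stimulated genes. Of 38 on that list 33 passed the minimum, with a median of 0.09 (0.05 after adjustment) and 25 of 33 above the median of all genes. At 1.2-fold 2 were higher (6.06%, beside 8.48% of all genes) and none lower. Those were TBK1, the kinase that activates IRF3, at 32.6, 17.5 and 23.9 FPKM, and ERAP2, a peptide-trimming enzyme, at 9.86, 6.72 and 8.69 FPKM. The HLA class I genes had ratios from 1.09 for HLA-B (interval 1.06 to 1.13) to 1.19 for HLA-C (interval 1.11 to 1.27) among the named ones, and reads of these near-identical genes may have been split among them. PSMB9, a subunit of the immunoproteasome, had a ratio of 1.18 (interval 1.05 to 1.33). STAT2, a transducer of the signal, was at 33.9 FPKM in the FoxO3 depletion and 39.3 FPKM in the co-depletion (interval of the ratio 0.986 to 1.37). CGAS, the sensor of cytosolic DNA, was lower, at 53.3 and 46.0 FPKM, a ratio of 0.863 (interval 0.794 to 0.938). In the combined interferon lists, the 36 genes with the response element in their promoter had a median of 0.16, and the 28 without it 0.11. Outside the lists, 470 genes with the element had a median of 0.02 and 7338 without it 0.01, both near the median of all genes.

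The 13 protein-coding transcripts of the mitochondrial genome, which encode core subunits of the respiratory chain and ATP synthase, were all above the median of all genes. Their median was 0.12 (0.14 after adjustment), the middle 50% ran from 0.09 to 0.16, and 2 were past 1.2-fold, MT-ND4L and MT-ND5. MT-ND4L was at 763 FPKM in the control, 593 FPKM in the FoxO3 depletion and 763 FPKM in the co-depletion, a ratio of 1.29 (interval 1.21 to 1.37). MT-ND5 was at 89.4, 67.3 and 81.5 FPKM, a ratio of 1.21 (interval 1.13 to 1.30). MT-CO2, among the most abundant, was at 5855, 4106 and 4287 FPKM, a ratio of 1.04 (interval 1.03 to 1.06). For MT-CO1, at 5454, 4754 and 5321 FPKM, no interval could be given. In 11 of the 13 the interval lay above 1, beside 14.2% of all genes. The intervals of these abundant transcripts were narrow, so smaller shifts left out 1. Their median interval spanned 0.033 on the log2 scale to each side, against 0.19 for all genes. Most of these transcripts come off a shared precursor, so the 13 are not separate observations. The 74 nuclear genes for the same chain had a median of 0.03. At 1.2-fold 1 of them was higher and 2 were lower, beside 8.48% and 2.99% of all genes. The 70 mitochondrial ribosomal protein genes had a median of 0.00.

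**Figure D4:**
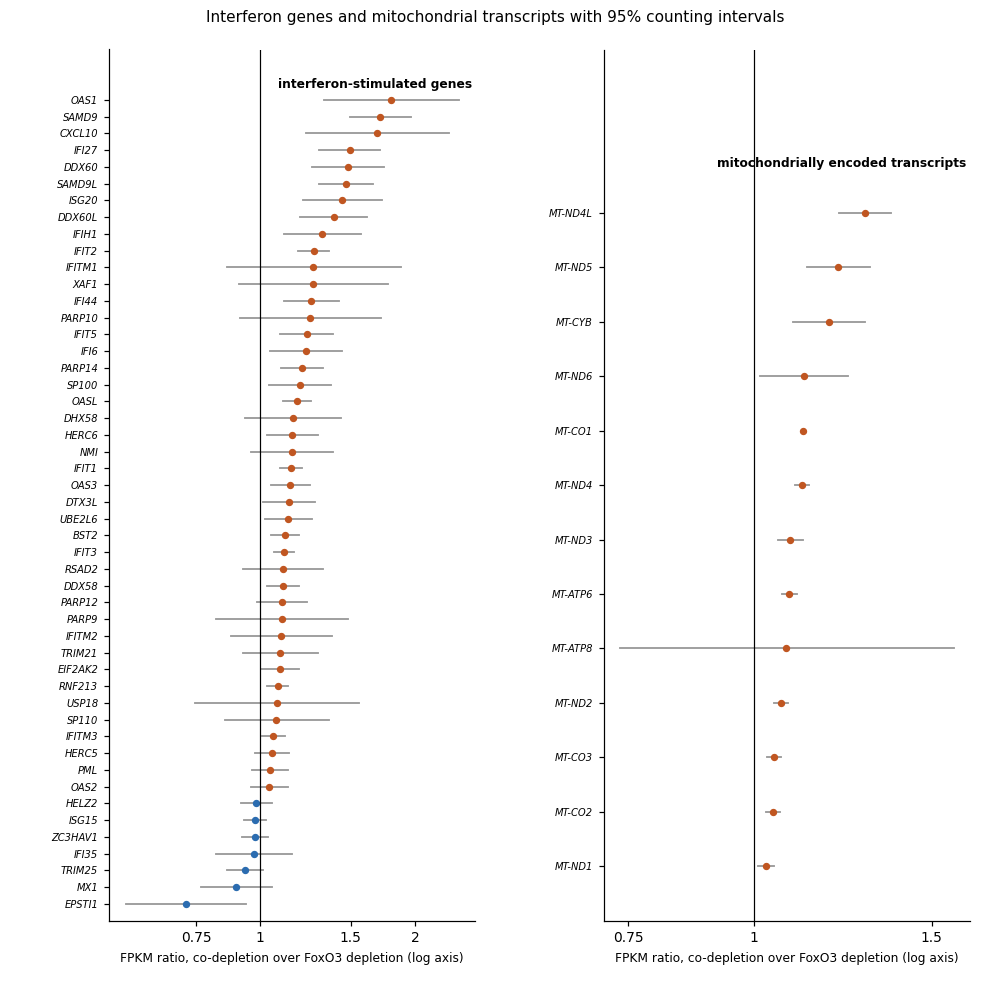
FPKM ratio, co-depletion over FoxO3 depletion, on a log axis (x axis) for each member above the minimum (y axis) of the interferon-stimulated and mitochondrially encoded lists. Points are ratios, orange above 1 and blue below, and bars are 95% counting intervals. OAS1 stands highest at 1.79 and EPSTI1 lowest at 0.717, and MT-CO1 has no interval.

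Checkpoint and mitotic genes were split, with GC contents that differed between those higher and those lower. The DNA damage checkpoint list (22 of 23 above the minimum) had a median of -0.09, yet 6 members were 1.2-fold higher and 1, HUS1, lower, beside 8.48% and 2.99% of all genes and 32.3% higher in the group lowest in GC content. The 6 were the kinases ATM and ATR, the clamp loader RAD17, and NBN, RAD50 and MRE11, which form the complex that senses double-strand breaks. ATM was at 50.7 FPKM in the control, 17.7 FPKM in the FoxO3 depletion and 25.6 FPKM in the co-depletion, a ratio of 1.44 (interval 1.28 to 1.63). ATR was at 18.0, 5.64 and 8.24 FPKM, a ratio of 1.46 (interval 1.18 to 1.81). NBN, RAD50 and MRE11 had ratios of 1.36, 1.29 and 1.24. All 6 transcripts had a GC content between 37.3% and 40.1%, and all 6 were lowest in the FoxO3 depletion, with the control above both depleted libraries. After GC adjustment 2 members, ATM and ATR, stayed past 1.2-fold upward. H2AFX, PRKDC, XRCC5 and XRCC6, the last 3 being the DNA-dependent kinase that joins breaks, had ratios of 0.839, 0.880, 0.885 and 0.905, each with an interval below 1. CHEK1, the kinase that ATR activates, was at 40.9 and 44.2 FPKM (interval of the ratio 0.965 to 1.21).

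For mitosis the list had 42 of 43 members above the minimum, a median of -0.07 (-0.06 after adjustment), and 7 members past 1.2-fold in each direction, beside 8.48% of all genes higher and 2.99% lower. Those higher were led by CENPE, a kinetochore motor, at 27.2, 9.31 and 13.6 FPKM in the control, the FoxO3 depletion and the co-depletion, and by DLGAP5 and NUF2, both of the spindle and kinetochore. Their transcripts had GC contents of 35.5%, 38.3% and 39.1%, and after adjustment 1 member stayed 1.2-fold higher and 5 stayed lower. Those lower were led by SPC24, a subunit of the kinetochore complex that also holds NUF2, at 61.4, 59.3 and 44.6 FPKM, a ratio of 0.752 (interval 0.667 to 0.848). CDC25C, the phosphatase that starts mitosis, was at 13.2, 13.2 and 9.95 FPKM, a ratio of 0.755 (interval 0.615 to 0.926). AURKA, a kinase of spindle poles, was at 127, 157 and 126 FPKM, a ratio of 0.8 (interval 0.759 to 0.844). CDC20 was at 225, 331 and 275 FPKM, a ratio of 0.830 (interval 0.795 to 0.868). SPC24 and NUF2, in the same complex, thus went opposite ways, with GC contents of 57.2% and 39.1%. Promoters of the list often held the letters of the cell cycle genes homology region, TTTGAA on either strand, in 22 of 34 (64.7%) beside 9.20% of all.

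Kinesins and the SMC complexes (cohesin, condensin and their relatives) were split as well. Of 25 kinesins above the minimum 5 were 1.2-fold higher (beside 8.48% of all genes), led by KIF3A, KIF18A and KIF20B, and 1 was lower (beside 2.99%), KIF2C, which takes microtubules apart at kinetochores, at 104, 132 and 103 FPKM. Of 26 SMC complex genes 8 were higher, led by SMC2 and STAG2, and 1 was lower. After GC adjustment 2 kinesins and 3 SMC complex genes were 1.2-fold higher, and 1 and 2 were lower. Medians of 0.08 and 0.06 for the 2 lists became -0.00 and -0.01 after GC adjustment, so their sign was not kept.

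Targets of p53, a factor that is mutant in this line, had a median of -0.01 over 21 genes, with 3 past 1.2-fold upward and 1 downward. At that size 8.48% of all genes were higher and 2.99% lower. TP53I3, a quinone oxidoreductase, was at 17.6 FPKM in the control, 11.4 FPKM in the FoxO3 depletion and 18.3 FPKM in the co-depletion, a ratio of 1.61 (interval 1.29 to 2.01). GDF15, a stress-induced cytokine, was at 7.47, 8.12 and 12.6 FPKM, a ratio of 1.56 (interval 1.16 to 2.09). CDKN1A, the cell cycle inhibitor p21, was at 107 and 115 FPKM in the FoxO3 depletion and the co-depletion, and its interval, 0.971 to 1.2, took in 1. BAX and GADD45A likewise had intervals that took in 1. Among 25 genes of the BCL2 family, the inhibitors of apoptosis and their partners, APAF1 and its target CASP9 were 1.2-fold lower, and BIRC2 and BIRC3 were higher. CASP9 had a wide interval of 0.439 to 1.32. Its recovered reads, 31 and 27, were few for its FPKM and transcript length. They may be divided by a common factor, which would make that interval too wide. The neighbours BIRC2 and BIRC3, which restrain caspases and NF-kB signalling, had ratios of 1.22 (interval 1.12 to 1.33) and 1.25 (interval 1.14 to 1.36), and log2 ratios of 0.18 and 0.11 after GC adjustment.

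Genes that FoxO factors activate were close between the libraries. Of 33 on the list 25 passed the minimum, with a median of -0.05 (0.00 after adjustment). At 1.2-fold 1 was higher (4% of the list, beside 8.48% of all genes) and none lower (beside 2.99%). That 1 was PIK3CA, a catalytic subunit of PI 3-kinase whose transcripts are poor in GC. KLF6, the most abundant of the named ones, was at 102, 118 and 121 FPKM in the control, the FoxO3 depletion and the co-depletion. CCNG2 and MXI1, both known FoxO targets, were at 12.0 and 10.1 FPKM and at 8.49 and 7.13 FPKM in the depleted libraries, with intervals that took in 1.

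Lists of cytokines and chemokines, of TGF-beta and BMP targets and of matrix genes showed small median shifts upward that hid opposite members. Of 32 cytokines and chemokines 13 passed the minimum, with a median of 0.12 (0.09 after adjustment). CXCL1, IL32 and CXCL8 were 1.2-fold higher and none lower, beside 8.48% and 2.99% of all genes. After GC adjustment 2 of the 13 were 1.2-fold higher and 1 lower. CXCL8, a chemokine for neutrophils, was at 14.5, 20.8 and 25.2 FPKM in the control, the FoxO3 depletion and the co-depletion, a ratio of 1.21 (interval 1.02 to 1.45), and its log2 ratio of 0.27 became 0.03 after adjustment. IL11 was at 57.0, 167 and 141 FPKM, a ratio of 0.847 (interval 0.799 to 0.898), and SAA1, an acute-phase protein, at 33.0, 207 and 187 FPKM, a ratio of 0.903 (interval 0.838 to 0.973). IL6 was at 5.46, 27.3 and 25.8 FPKM and its interval took in 1. IL11, SAA1 and IL6 were thus far above the control in both depleted libraries. IL11 and SAA1 were slightly lower in the co-depletion than in the FoxO3 depletion. The subunits and feedback genes of NF-kB had a median of -0.01 over 24 genes.

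TGF-beta and BMP targets had a median of 0.11 over 19 genes (0.06 after adjustment). SKIL, TGFBR1 and ID1 were 1.2-fold higher, ID1 at 62.4, 91.7 and 111 FPKM with a ratio of 1.21 (interval 1.11 to 1.30). THBS1, a matrix glycoprotein that activates TGF-beta and a target of YAP too, was the 1 member 1.2-fold lower, at 560 FPKM in the control, 2368 FPKM in the FoxO3 depletion and 1855 FPKM in the co-depletion, a ratio of 0.784 (interval 0.773 to 0.795). It was above the control in the co-depletion still. At 1.2-fold 8.48% of all genes were higher and 2.99% lower. After GC adjustment 0 TGF-beta and BMP targets were 1.2-fold higher and 2 were lower. Collagens had a median of 0.11 over 17 of 44 genes (0.05 after adjustment). The collagen VI chains COL6A1 and COL6A2 were 1.2-fold higher and COL8A1 1.2-fold lower, but after GC adjustment 0 collagens were past 1.2-fold in either direction. COL6A1 was at 176, 171 and 210 FPKM, a ratio of 1.22 (interval 1.17 to 1.29). Other matrix proteins had a median of 0.10 over 26 genes (0.04 after adjustment), with FN1, fibronectin, at 116, 102 and 123 FPKM, a ratio of 1.2 (interval 1.16 to 1.25). ITGB1, the shared beta chain of fibronectin and collagen receptors, was at 1322, 846 and 1033 FPKM, a ratio of 1.22 (interval 1.19 to 1.25), and its partner ITGAV at 48.6, 23.9 and 33.5 FPKM, a ratio of 1.40 (interval 1.27 to 1.55). FN1 was higher than in both other libraries, whereas ITGB1 and ITGAV lay between the FoxO3 depletion and the control. Targets of YAP and TEAD had a median of -0.05 over 28 genes, with YAP1 itself at 100, 88.4 and 72.3 FPKM, a ratio of 0.818 (interval 0.756 to 0.885).

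Cholesterol synthesis and SREBP targets had a median of -0.07 (-0.08 after adjustment) over 29 of 30 genes, with 5 lower and 3 higher at 1.2-fold, beside 2.99% and 8.48% of all genes. INSIG1, the sterol-regulated anchor of SREBP, was at 51.0 FPKM in the control, 52.4 FPKM in the FoxO3 depletion and 37.0 FPKM in the co-depletion, a ratio of 0.706 (interval 0.639 to 0.779). SREBF2, which encodes the main sterol-responsive factor, was at 51.8, 59.8 and 47.9 FPKM, a ratio of 0.802 (interval 0.744 to 0.864). SCD, the desaturase that makes oleate, had a ratio of 0.806 (interval 0.767 to 0.846). INSIG1, SREBF2 and SCD were lowest in the co-depletion. The enzymes SC5D and TM7SF2 and the synthase FDPS were higher, TM7SF2 and FDPS with intervals that took in 1. Antioxidant enzymes and other NRF2 targets had a median of -0.06 over 32 genes. At 1.2-fold 2 were lower, GSR and ABCC1, and none higher, beside 2.99% and 8.48% of all genes. Nucleoporins had a median of -0.07 over 28 genes, and their counting interval lay below 1 for 11 and above 1 for 3, beside 10.3% and 14.2% of all genes.

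Most families stayed at the level of all genes. Of the 62 lists with a median, 53 had one within 0.1 of 0, and 51 of the 62 had 0 members past 1.5-fold in either direction. The 81 cytosolic ribosomal proteins had a median of -0.01, the 44 proteasome subunits 0.00, the 33 heat shock proteins -0.03, the 194 ZNF genes 0.04 and the 41 Polycomb and SWI/SNF genes 0.01. RPL26, past 1.5-fold upward, was the exception among ribosomal proteins, at 12.6 and 20.3 FPKM in the depleted libraries (interval of the ratio 1.22 to 2.14), and has many near-identical copies among which reads may have been split. HDAC3 and its corepressor NCOR1 belonged to a list of 19 with a median of 0.07, in which HDAC3 was at 77.6, 88.3 and 92.8 FPKM in the control, the FoxO3 depletion and the co-depletion.

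**Figure D5:**
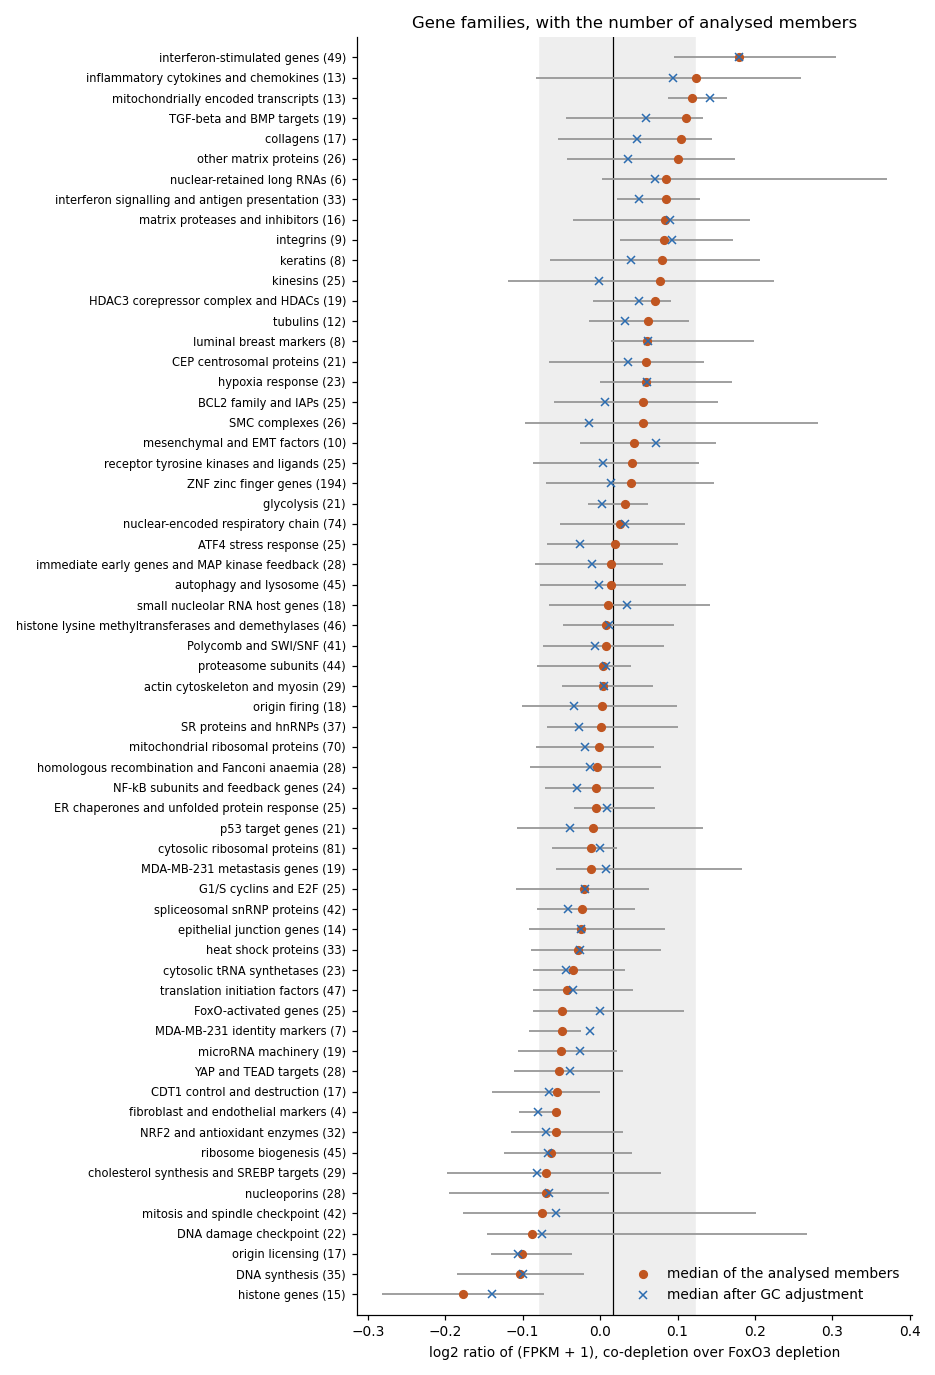
Median log2 ratio of (FPKM + 1), co-depletion over FoxO3 depletion (x axis), of the 62 gene families with at least 4 members above the minimum (y axis, with the number of members). Points are medians, grey bars span the middle 50% of the members and crosses are medians after GC adjustment, with the vertical line at the median of all genes and the grey band over their middle 50%. Interferon-stimulated genes stand highest at 0.18 and histone genes lowest at -0.18.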

How the data were processed

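Total RNA of 3 MDA-MB-231 cultures was sequenced, 1 library per group. The deposited files give the authors' FPKM per Ensembl gene, made with TopHat2 2.0.9 per the submitters' processing notes, with the counter, genome build and annotation not given in the sources used here. Names came from GENCODE 29, which matched 45342 of 48162 identifiers; 109 unnamed genes above the minimum were left out. FPKM were whole multiples of 1 read per gene (99.985% of 20591 genes, against 0.1% of 2000 random values), which gave the totals and the exact Clopper-Pearson intervals (95%). The median gene had 916 reads over the 2 libraries. For 8.09% of genes the recovered reads may be divided by a common factor, which makes the interval too wide. Reads without molecular identifiers are not independent molecules. Sizes are log2 ratios with a pseudocount of 1, counted at 1.2-fold and 1.5-fold. The GC adjustment subtracted a running median over 301 genes. Scripts used Python 3.11.15, numpy 2.4.6, pandas 2.3.3 and scipy 1.17.1, and were tested on simulated data. The comparison, its genes and the 67 lists were chosen with earlier results of these data known. Named genes were GMNN and FOXO3, the 15 highest and 15 lowest ratios, and in each list up to 6 members by size and 4 by mean FPKM; other members named were chosen after their values were seen. Some genes that this rule selects are not reported here. No test was possible with 1 library per group.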

Additional observations from a re-analysis of the deposited data

How the results depend on the processing

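No paired analysis was possible because each group had 1 library, and no library could be left out. The counts at a given size depended on the minimum and the pseudocount. With a pseudocount of 0.1, 62 genes were 1.5-fold higher. With a pseudocount of 5, 442 genes were 1.2-fold higher and 153 lower, and 4 were 1.5-fold higher and 3 lower. With a minimum mean of 1 FPKM the counts were 1535 and 630 at 1.2-fold and 162 and 70 at 1.5-fold, with 20 FPKM 257, 122, 6 and 6, and with no minimum 2873, 1688, 384 and 232. After GC adjustment 528 genes were 1.2-fold and 21 were 1.5-fold higher, and after adjustment for GC and length 528 and 22. Among protein-coding genes 8 were 1.5-fold lower.

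Of 679 list medians under the alternatives, 624 had the sign of the reported median or were exactly 0. Another 47 had the other sign in 17 lists whose reported median was within 0.05 of 0, none of them farther from 0 than 0.052, and 8 reversed from a median of 0.05 or more. The histone median went from -0.18 to -0.09 with a minimum of 20 FPKM. The median of kinesins reversed to -0.079 with 20 FPKM, -0.0019 after GC adjustment and -0.026 after GC and length adjustment, and that of SMC complexes to -0.050, -0.014 and -0.00510. Collagens reversed to -0.0050 with 20 FPKM and keratins to -0.011 with no minimum, where mesenchymal and EMT factors moved to 0.11. Of the single named genes, 6203 values kept their size, 110 moved and 0 reversed. A requirement that the counting interval leave out 1, chosen after seeing the data, left 35 and 12 of the genes past 1.5-fold. The cause of these changes was not tested. Depth limits genes near 5 FPKM most: the median interval of all genes spanned 0.19 on the log2 scale to each side.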

Other observations

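Families outside those described showed single members apart from the rest. Among nuclear-retained long RNAs, MALAT1 was at 84.5 FPKM in the control, 34.9 FPKM in the FoxO3 depletion and 54.8 FPKM in the co-depletion, a ratio of 1.57 (interval 1.48 to 1.66), and NEAT1, the scaffold of paraspeckles, was at 33.1, 14.2 and 19.8 FPKM, a ratio of 1.39 (interval 1.30 to 1.49). After GC adjustment their log2 ratios were 0.53 and 0.51. TUG1 and NORAD, on the same list, had intervals that took in 1. Among ER chaperones, HSP90B1 (GRP94) was at 780, 491 and 610 FPKM, a ratio of 1.24 (interval 1.2 to 1.28), while the list of 25 had a median of -0.01. HSP90AA1, the inducible cytosolic HSP90, was at 1346, 783 and 894 FPKM, a ratio of 1.14 (interval 1.11 to 1.17). All 4 transcripts that differed were lowest in the FoxO3 depletion. Ribosome biogenesis genes had a median of -0.06 over 45 genes, with an interval below 1 for 14 and above 1 for 3 (beside 10.3% and 14.2% of all genes), and NOP58, a core protein of box C/D particles, was the 1 member 1.2-fold higher.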
